A study of Mus musculus with 5 samples.

Results

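Granulocyte, mast cell and megakaryocyte transcripts were examined as 31 genes, of 39179 genes listed, in RNA from TER119+ erythroid cells of the mouse fetal liver. The genes were taken by symbol from a list of lineage genes, 14 of the granulocyte lineage, 7 of mast cells and basophils and 10 of megakaryocytes and platelets. All 31 were found in the count table. TER119 is a surface antigen of maturing red cells, so these other blood lineages are not the target of such a sort.

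Both groups were C57BL/6 embryos at 14.5 days post conception, and both carried Cre recombinase driven by the Vav1 promoter, which is active across blood lineages. The 3 control libraries had the genotype Csnk2b+/+ Vav+/Cre. The 2 KO libraries had the genotype Csnk2bfl/fl Vav+/Cre, in which Cre removes Csnk2b, the gene of the regulatory subunit of protein kinase CK2. Because Vav1 is pan-hematopoietic, the deletion was not limited to red cells, and granulocyte, mast cell and megakaryocyte precursors of the KO embryos could carry it too. The labels do not say whether a library came from 1 embryo or from several, so p-values measure the spread between these libraries.

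Granulocytes store antimicrobial proteins in granules that are made in order as the cell matures: azurophil granules first, with myeloperoxidase and the serine proteases, then specific granules, with lactoferrin and cathelicidin. Mast cells and basophils carry the high-affinity IgE receptor and store proteases and histamine. Megakaryocytes make platelets, whose surface holds the fibrinogen receptor and the von Willebrand factor receptor and whose alpha granules hold chemokines such as platelet factor 4. The fetal liver is the main site of blood formation at this age, and erythroid cells, megakaryocytes and mast cells share GATA factors with one another.

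Total counts per library were 13187094 to 15366021. Expression is given as CPM, the usual depth-normalised count, on library sizes scaled by the trimmed mean of M-values (TMM), and libraries are given in the order of their replicate numbers. Csnk2b stood at 186, 186 and 169.5 CPM in controls and at 112 and 95.6 CPM in KO. It was 1.74-fold lower in KO (log2 fold change -0.80 ± 0.09 SE, edgeR adjusted p = 0.0018), and no KO library overlapped the controls. Among 14 erythroid genes measured, 0 were called in either direction in edgeR or limma-voom, which called 6.98% and 6.48% of all genes tested. DESeq2 called 3 of the 14 lower, against 288 of all 13000 genes tested. In edgeR 4 of the 14 had an unadjusted p under 0.05, all lower. Of all 13000 genes tested, 3097 (23.8%) had such a p, 1233 of them lower. The summed level of the 14 was 71168 to 87450 CPM in controls and 63988 to 81829 CPM in KO. Hbb-bs, the adult beta globin gene, was at 15462, 19046 and 19169 CPM in controls and 20197 and 16067 CPM in KO. Slc4a1, the red cell anion exchanger, and Hba-a1, an alpha globin gene that shares reads with a near-identical copy, had log2 fold changes of -0.12 ± 0.14 and -0.11 ± 0.25 (edgeR adjusted p = 0.65 and 0.84).

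All 31 lineage genes together summed to 867 to 1131 CPM in controls and 1089 and 995 CPM in KO. The granulocyte genes made up most of it, at 752, 574 and 834 CPM in controls and 783 and 655 CPM in KO. Megakaryocyte genes summed to 252, 241.5 and 230 CPM in controls and 245.5 and 284.5 CPM in KO, and mast cell and basophil genes to 62.7, 51.2 and 67.3 CPM in controls and 60.2 and 55.3 CPM in KO. On the log2 scale the KO group differed from controls by -0.00 for the granulocyte sum, -0.07 for the mast cell sum and 0.14 for the megakaryocyte sum. The pooled SD of log2 sums between libraries of a group was 0.25, 0.17 and 0.10 in that order, so the first and second differences were smaller than the spread and the third was slightly larger. The mast cell sum turned to 0.21 without Il1rl1, its most counted gene, and the megakaryocyte sum was 0.28 without Rap1b and 0.02 without KO replicate 2. With 1 library left out the granulocyte sum ranged from -0.16 to 0.12. In bulk RNA, fewer cells of a lineage and less RNA per cell cannot be told apart.

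Of the 31 genes, 26 passed the filter on low counts and were tested over all 13000 genes kept. In edgeR's quasi-likelihood test, 0 of 26 were called higher and 0 lower in KO at an adjusted p under 0.05, against 6.98% of all genes tested called in either direction, 5.15% higher and 1.83% lower. At an unadjusted p under 0.05 there were 9 of 26, 4 higher and 5 lower, against 23.8% of all genes tested. DESeq2 called 1 of 26, Itga2b, where it called 6.4% of all genes, and limma-voom called 0 of 26, where it called 6.48%. The 2 KO libraries lay above all 3 controls for 4 of 26 genes (21.9% of all genes tested) and below all 3 for 5 of 26 (19.3% of all genes tested), and the groups overlapped for 17. The median log2 fold change was -0.07 over the 26 and 0.01 over all genes tested.

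**Figure D1:**
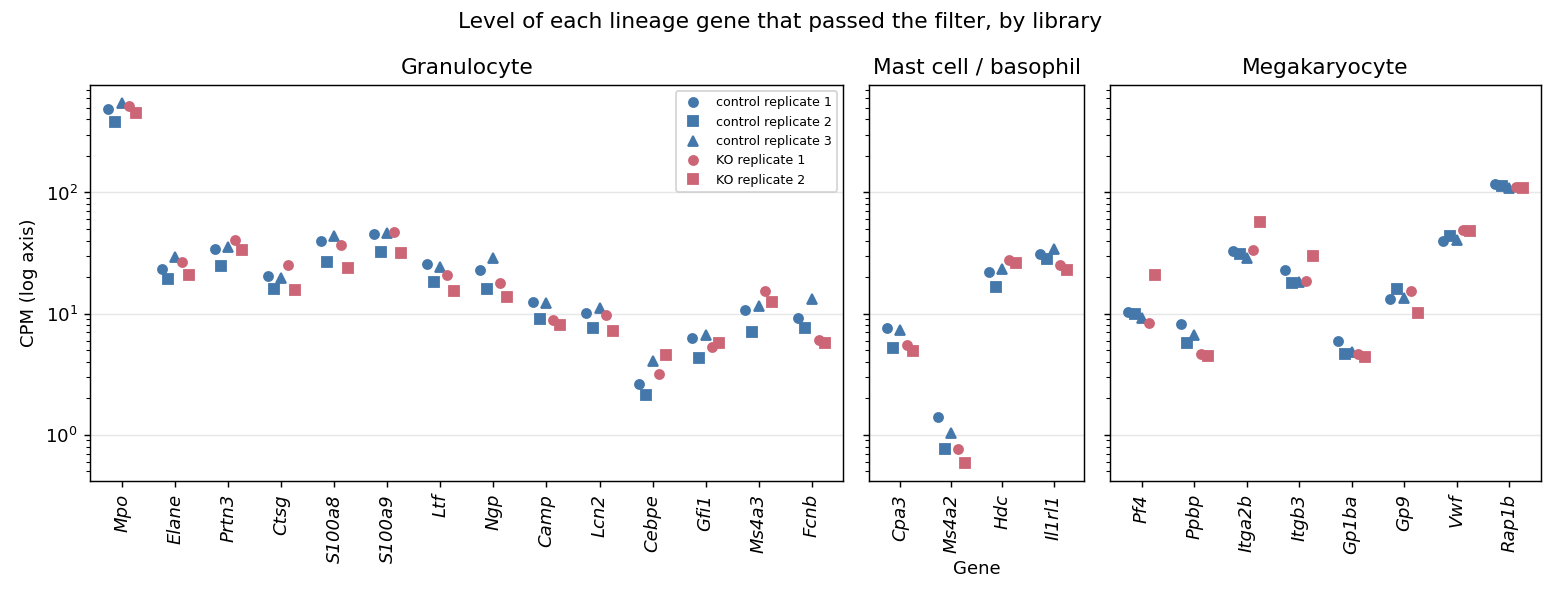
CPM (log axis) of the 26 lineage genes that passed the filter, 1 point per library, controls in blue and KO in red, the shape giving the replicate number, with the 3 lineages in separate panels. Mpo stands between 383 and 548 CPM and Rap1b between 108 and 117 CPM, while Cebpe and Ms4a2 stand under 5 CPM in every library.

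None of the azurophil granule genes passed the test, and Mpo had the highest level of the 31 genes in every library. Mpo, which encodes myeloperoxidase, was at 489, 383 and 548 CPM in controls and 520 and 457 CPM in KO. It held 65.1% to 69.7% of the granulocyte sum, and its log2 fold change was 0.04 ± 0.14 (edgeR adjusted p = 0.88). Both KO libraries lay inside the control range, and the controls themselves spanned 1.43-fold. Elane, neutrophil elastase, was at 23.2, 19.2 and 29.2 CPM in controls and 26.75 and 20.7 CPM in KO, again inside the control range (-0.02 ± 0.17, edgeR adjusted p = 0.97). Prtn3, proteinase 3, was at 34.2, 24.6 and 35.7 CPM in controls and 40.7 and 33.6 CPM in KO (0.23 ± 0.16, edgeR adjusted p = 0.40). KO replicate 1 was the highest library for Prtn3, while KO replicate 2 lay among the controls; 159 bp of Prtn3 exons overlap Plppr3 on the opposite strand, and the use of strand in counting is not given. Ctsg, cathepsin G, was at 20.4, 16.1 and 19.8 CPM in controls and 25.1 and 15.55 CPM in KO (0.10 ± 0.19, edgeR adjusted p = 0.79). The 2 KO libraries were the highest and the lowest of the 5 for Ctsg, 1.61-fold apart, more than the 1.27-fold between the controls.

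The specific granule genes had lower group means in KO, and none passed the test. Ltf, lactoferrin, was at 25.7, 18.1 and 24.2 CPM in controls and 20.8 and 15.5 CPM in KO (-0.33 ± 0.17, edgeR adjusted p = 0.28). Ngp, neutrophilic granule protein, was at 23.1, 16.0 and 28.7 CPM in controls and 17.75 and 13.7 CPM in KO (-0.53 ± 0.22, edgeR adjusted p = 0.19). For both genes KO replicate 2 was the lowest library and KO replicate 1 lay above control replicate 2. Camp, the cathelicidin gene, was at 12.55, 8.99 and 12.2 CPM in controls and 8.84 and 8.035 CPM in KO (-0.42 ± 0.17, edgeR adjusted p = 0.17). Both KO libraries were below all controls for Camp, though control replicate 2 stood close to them. Lcn2, lipocalin 2, which binds bacterial siderophores, was at 10.2, 7.62 and 11.2 CPM in controls and 9.68 and 7.19 CPM in KO (-0.20 ± 0.19, edgeR adjusted p = 0.57). Without KO replicate 2 the log2 fold changes were -0.0047 for Lcn2, -0.13 for Ltf, -0.36 for Ngp and -0.36 for Camp, and without control replicate 3 they were -0.09 for Lcn2 and -0.33 for Ngp.

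Set against each other within a library, the granule classes gave a ratio that did not overlap between the groups, although no single granule gene passed the test. The geometric mean of Ltf, Ngp, Camp and Lcn2 was 16.6, 11.9 and 17.5 CPM in controls and 13.3 and 10.5 CPM in KO. That of Mpo, Elane, Prtn3 and Ctsg was 53, 41.3 and 58 CPM in controls and 61.4 and 47.1 CPM in KO. The log2 ratio of the specific to the azurophil mean was -1.68, -1.80 and -1.72 in controls and -2.20 and -2.16 in KO. The groups did not overlap in this ratio, and control replicate 2, low for both classes, was close to the other controls. Among single genes, KO lay above all controls for 21.9% of all genes tested and below all controls for 19.3%. These classes were formed after the values had been seen, so the ratio is a description without a test. Other choices of genes for the classes were not tested.

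**Figure D2:**
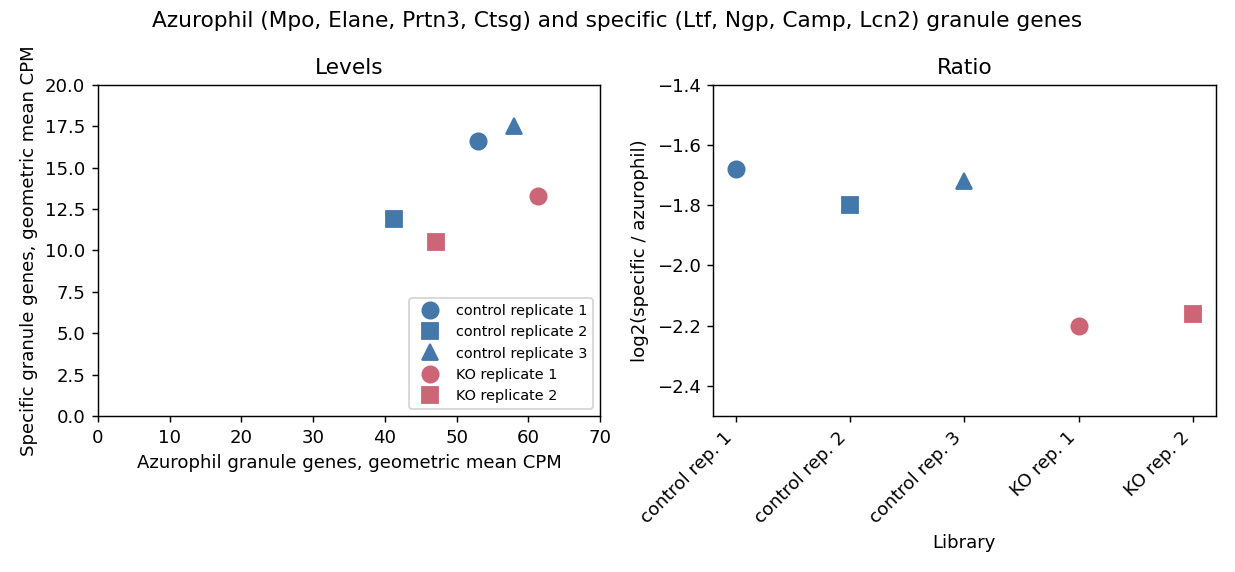
Left, geometric mean CPM of the specific granule genes (Ltf, Ngp, Camp, Lcn2) against that of the azurophil genes (Mpo, Elane, Prtn3, Ctsg), 1 point per library, controls in blue and KO in red; right, the log2 ratio of specific to azurophil. The ratio was between -1.80 and -1.68 in the 3 controls and was -2.20 and -2.16 in the 2 KO libraries.

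S100a8 and S100a9 encode the paired subunits of calprotectin, a cytosolic calcium-binding protein of neutrophils, and are neighbours on chromosome 3. S100a8 was at 39.6, 26.8 and 44.0 CPM in controls and 37.05 and 23.7 CPM in KO (-0.29 ± 0.22, edgeR adjusted p = 0.48). S100a9 was at 45.2, 32.3 and 45.9 CPM in controls and 46.8 and 31.8 CPM in KO (-0.07 ± 0.19, edgeR adjusted p = 0.85). In both genes control replicate 2 and KO replicate 2 were the lowest libraries, and the 1.64-fold range of S100a8 among controls was wider than the difference between the groups.

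Ms4a3, a membrane protein of granulocyte-monocyte progenitors, and Fcnb, ficolin B, a lectin of the complement system, stood on opposite sides of the controls. Ms4a3 was at 10.7, 7.09 and 11.65 CPM in controls and 15.3 and 12.4 CPM in KO (0.49 ± 0.20, edgeR adjusted p = 0.18), with both KO libraries above all controls. Fcnb was at 9.14, 7.62 and 13.25 CPM in controls and 6.07 and 5.77 CPM in KO (-0.76 ± 0.23, edgeR adjusted p = 0.083), with both KO libraries below all controls. Of the transcription factors of the lineage, Gfi1 was at 6.31, 4.27 and 6.66 CPM in controls and 5.30 and 5.77 CPM in KO (-0.06 ± 0.20, edgeR adjusted p = 0.90), with 101 bp of its exons shared with A430072P03Rik. Cebpe, a C/EBP factor needed for specific granules, was at 2.13 to 4.09 CPM in controls and 3.15 and 4.54 CPM in KO (0.39 ± 0.28, edgeR adjusted p = 0.44).

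The stretches just upstream of Ctsg and Fcnb are shown because these genes stand for the azurophil class and for the granulocyte gene with the lowest log2 fold change. RefSeq windows of 250 bases before the start were at hand for 28 of the 31 genes, on GRCm38.p6. Ctsg is the window chr14:56102575-56102824 on the minus strand and Fcnb is chr2:28084879-28085128 on the minus strand. Both run 5′ to 3′ toward the gene, and capitals mark 3 motifs on either strand. The first is GATAA, bound by GATA factors, which reads TTATC on the other strand. The second is GGAAG, bound by ETS factors, which reads CTTCC on the other strand, and the third is TTGCNNAA, bound by C/EBP factors, which reads TTNNGCAA there.
Ctsg: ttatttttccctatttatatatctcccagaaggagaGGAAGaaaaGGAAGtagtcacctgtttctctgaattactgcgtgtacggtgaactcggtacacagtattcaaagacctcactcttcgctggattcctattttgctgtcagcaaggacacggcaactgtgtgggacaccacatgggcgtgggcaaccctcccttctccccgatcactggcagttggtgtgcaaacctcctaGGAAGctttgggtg
Fcnb: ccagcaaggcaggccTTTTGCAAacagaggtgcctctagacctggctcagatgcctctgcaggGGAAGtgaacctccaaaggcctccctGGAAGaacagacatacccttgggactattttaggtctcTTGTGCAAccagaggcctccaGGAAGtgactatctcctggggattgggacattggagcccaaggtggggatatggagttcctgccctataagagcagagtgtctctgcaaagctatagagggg
The last 7 bases of the Fcnb window lie inside the gene as GENCODE draws it. Ctsg held 3 GGAAG matches and no match to the other motifs, and Fcnb held 3 GGAAG and 2 TTGCNNAA matches. Over the 13 granulocyte genes with a window, TTGCNNAA was found in 6, GGAAG in 12 and GATAA in 2, while 9.56%, 64.1% and 22.6% of all 32851 windows of this length held them. The counts are per gene and the shares per window, so they are not on the same footing. Gfi1 has more than 1 window, with GGAAG and TTGCNNAA in different windows, and counts for both. A match is a run of letters, and a missing match says only that these letters are not in this window.

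**Figure D3:**
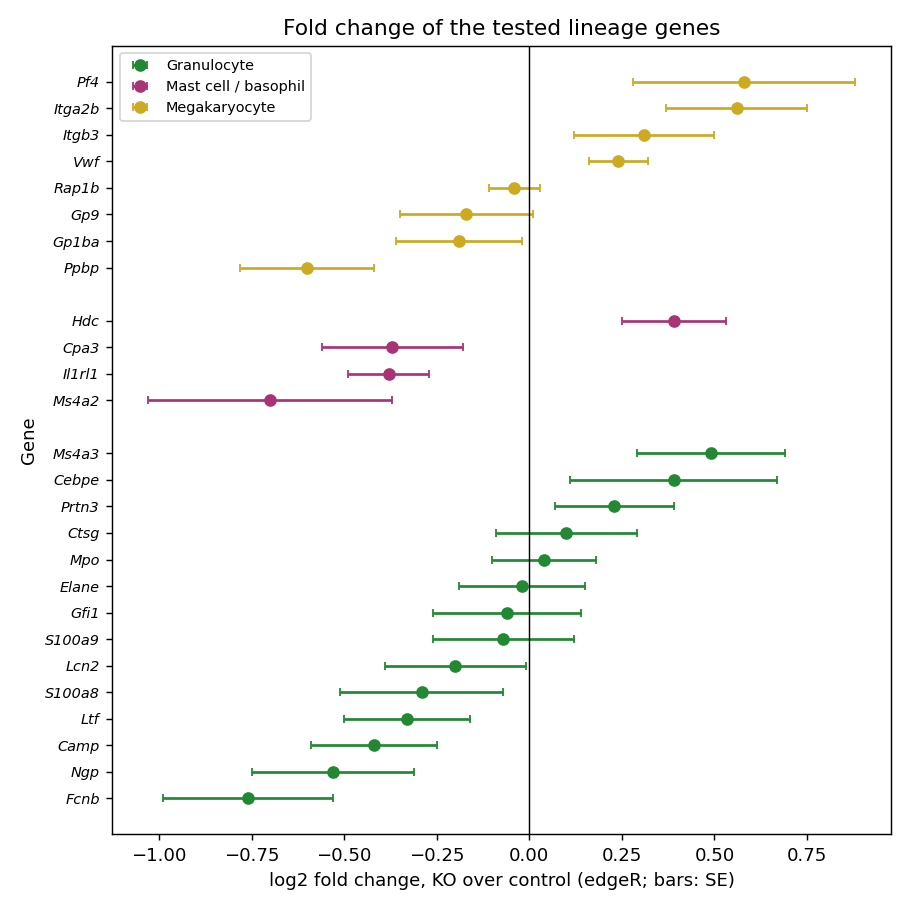
Log2 fold change of KO over control with its standard error for the 26 genes tested, by lineage. Values run from -0.76 for Fcnb to 0.58 for Pf4, and none of the genes reached an edgeR adjusted p under 0.05.

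Library by library, control replicate 2 had the lowest control value for 14 of the 14 granulocyte genes, where 35.8% of all genes tested had it. Its median log2 difference from the other controls was -0.50. KO replicate 2 was below KO replicate 1 for 12 of the 14, against 6420 of all 13000 genes tested. The median log2 ratio was -0.33, and the exceptions were Cebpe and Gfi1. These differences within a genotype were wider than the median log2 fold change of -0.07 between genotypes. At an unadjusted p under 0.05 there were 4 of the 14 granulocyte genes in edgeR, against 23.8% of all genes tested. They were Ms4a3 above and Ngp, Camp and Fcnb below.

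Other granulocyte genes had the same low control library. Of 36 listed, 30 were tested and 0 were called in edgeR, DESeq2 or limma-voom, where edgeR called 6.98% of all genes tested. In edgeR 6 of the 30 had an unadjusted p under 0.05, 3 in each direction, against 23.8% of all genes tested. Control replicate 2 was the lowest control for 26 of the 30, where 35.8% of all genes tested had it. KO replicate 2 was below KO replicate 1 for 24, against 6420 of all 13000 genes tested. The sum over the list was 529, 438 and 578 CPM in controls and 534 and 439.5 CPM in KO. Lyz2, lysozyme, was at 96.6, 84.8 and 111.5 CPM in controls and 88.9 and 61.0 CPM in KO (-0.38 ± 0.16, edgeR adjusted p = 0.19). Ctsc, the protease that activates the granule serine proteases, was at 60.0, 63.3 and 59.2 CPM in controls and 57.1 and 44.1 CPM in KO (-0.27 ± 0.11, edgeR adjusted p = 0.18). Srgn, serglycin, the granule proteoglycan, was at 49.6, 39.6 and 49.2 CPM in controls and 50.8 and 46.85 CPM in KO (0.08 ± 0.11, edgeR adjusted p = 0.70). Without KO replicate 1, which leaves KO replicate 2 as the lone KO library, the log2 fold changes were -0.70 for Lyz2 and -0.49 for Ctsc.

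The other 4 genes at an unadjusted p under 0.05 are named after their values had been seen. Cebpa, Plac8 and Irf8, which are active in early myeloid progenitors, had log2 fold changes of 0.54 ± 0.21, 0.42 ± 0.16 and 0.42 ± 0.15 (edgeR adjusted p = 0.15, 0.15 and 0.12). Cebpa was at 4.27 to 6.66 CPM in controls and 6.92 and 9.33 CPM in KO. Cd177, a surface protein of maturing neutrophils, was at 1.22 to 2.15 CPM in controls and 1.15 and 0.907 CPM in KO (-0.80 ± 0.29, edgeR adjusted p = 0.14). Ly6g, the surface antigen of mature neutrophils, was at 0.193 to 0.229 CPM in controls and 0.231 and 0.259 CPM in KO, which is 3 or 4 counts a library.

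Eosinophil granule genes, a neighbouring lineage, were listed apart. Of 9, 7 were tested and 0 were called in edgeR, DESeq2 or limma-voom, where edgeR called 6.98% of all genes tested. In edgeR 2 of the 7 had an unadjusted p under 0.05, both lower. Of all 13000 genes tested, 3097 (23.8%) had such a p, 1233 of them lower. The sum over the list was 37.6, 24.2 and 36.0 CPM in controls and 29.5 and 33.4 CPM in KO. Control replicate 2 was the lowest control for 7 of 7, against 35.8% of all genes tested. Prg2, major basic protein, was at 15.6, 10.5 and 14.8 CPM in controls and 12.99 and 16.9 CPM in KO (0.13 ± 0.18, edgeR adjusted p = 0.71). Epx, eosinophil peroxidase, and Siglecf, a lectin of the eosinophil surface, had log2 fold changes of -0.15 ± 0.19 and -0.02 ± 0.23 (edgeR adjusted p = 0.67 and 0.97). Ear1 and Ear2, eosinophil ribonucleases with close paralogs between which reads may be divided, had values of -1.24 ± 0.44 and -0.56 ± 0.20 (edgeR adjusted p = 0.13 for both). They were picked as the pair at an unadjusted p under 0.05, and Ear1 rests on 6 to 22 counts a library.

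The genes listed for mast cells and basophils were in part well above and in part at the counting floor. Il1rl1, the receptor of interleukin 33, Hdc, the histamine-forming histidine decarboxylase, and Cpa3, a granule carboxypeptidase, were counted in every library, and the granule proteases of basophils were near the floor. Of 28 other genes of these cells, Fcer1a, the alpha chain of the IgE receptor, Mcpt4, Mrgprb1, Mrgprb2, Tph1 and Ltc4s had 0 counts in every library, which allows up to 0.193 to 0.231 CPM a library at 3 counts. Cma1, a chymase gene, had 4 counts, all in KO replicate 2, and Tpsab1, a tryptase gene, had 1 count. These were picked after their values had been seen, and other genes of the same list were detected: Kit, Gata2 and Fcer1g, which progenitors or other myeloid cells express as well, had means of 89.6, 14.65 and 8.08 CPM over the 5 libraries, and Slc18a2, Hpgds and Adora3 had means of 1.54, 1.17 and 0.981 CPM. The label of mast cells thus had both present and absent markers, and the 7 genes are described by name.

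Il1rl1 was at 31.01, 28.4 and 34.5 CPM in controls and 25.3 and 22.7 CPM in KO. The KO libraries were below all controls (-0.38 ± 0.11, edgeR adjusted p = 0.065). Hdc, which immature myeloid cells also express, was at 22.1, 16.5 and 23.2 CPM in controls and 27.7 and 26.2 CPM in KO (0.39 ± 0.14, edgeR adjusted p = 0.13). For Hdc both KO libraries stood above all controls, opposite to Il1rl1. Cpa3 was at 7.66, 5.18 and 7.28 CPM in controls and 5.53 and 4.925 CPM in KO (-0.37 ± 0.19, edgeR adjusted p = 0.29), with KO replicate 1 inside the control range.

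Ms4a2, the beta chain of the IgE receptor, was at 0.762 to 1.42 CPM in controls and 0.769 and 0.583 CPM in KO (-0.70 ± 0.33, edgeR adjusted p = 0.25), from 9 to 22 counts a library. Mcpt8, a basophil protease, had 3, 3 and 7 counts in controls and 6 and 5 in KO. Prss34, another basophil protease, had 3, 0 and 9 counts in controls and 4 in each KO library, where 0 counts allow up to 0.229 CPM. Gata3, a factor of T cells and of early mast cells, had 2 or 3 counts in every library. These 3 genes did not pass the filter and a difference between the groups was not detectable at this depth.

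Control replicate 2 was the lowest control for 4 of the 4 tested genes of this lineage, where 35.8% of all genes tested had it. KO replicate 2 was below KO replicate 1 for 4 of 4, against 6420 of all 13000 genes tested. The median log2 fold change of the 4 was -0.38. Hdc and Il1rl1, 2 of the 4, had an unadjusted p under 0.05 in edgeR, against 23.8% of all genes tested. Without KO replicate 1, a fit with KO replicate 2 as the lone KO library, Il1rl1 passed (-0.48, edgeR adjusted p = 0.021), where 9.28% of all genes were called lower.

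The upstream stretch of Il1rl1 is shown as that of the gene of the list with the smallest p, from the start whose window lies outside annotated genes. It is the window chr1:40429320-40429569 on the plus strand of GRCm38.p6, marked as above.
Il1rl1: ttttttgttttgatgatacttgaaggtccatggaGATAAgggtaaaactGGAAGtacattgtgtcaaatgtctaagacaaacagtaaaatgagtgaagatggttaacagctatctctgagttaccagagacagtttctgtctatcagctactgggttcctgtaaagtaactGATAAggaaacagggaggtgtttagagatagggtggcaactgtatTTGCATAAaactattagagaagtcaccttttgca
It held 2 GATAA matches, 1 GGAAG match and 1 TTGCNNAA match. Over the 7 genes of the lineage GATAA or TTATC was found in 4, GGAAG in 5 and TTGCNNAA in 1.

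Of 28 other mast cell and basophil genes, 14 were tested and 1 was called higher and 0 lower in edgeR, a share near the 6.98% of all genes called in either direction. That gene was Csf2rb2, a beta chain of the interleukin 3 receptor, at 6.63, 6.25 and 7.77 CPM in controls and 13.7 and 10.6 CPM in KO (0.81 ± 0.16, edgeR adjusted p = 0.019). Both KO libraries were above all controls. DESeq2 and limma-voom also called it, but it missed the threshold without control replicate 1 (edgeR adjusted p = 0.098), without control replicate 2 (0.09) and without a filter (0.076). Those fits called 210 to 235 of all genes higher, against 669 in the main fit. Csf2rb, the neighbouring paralog of Csf2rb2, with which reads may be divided, was at 29.15, 23.25 and 33.8 CPM in controls and 37.0 and 32.2 CPM in KO (0.26 ± 0.14, edgeR adjusted p = 0.31). Both receptors are also found on other myeloid cells. Kit, the stem cell factor receptor of mast cells and of progenitors, was at 101.5, 89.3 and 99.7 CPM in controls and 78.6 and 79.2 CPM in KO (-0.30 ± 0.08, edgeR adjusted p = 0.059). Itgb7, an integrin chain of mast cell progenitors, was at 15.8, 18.1 and 18.1 CPM in controls and 16.9 and 28.7 CPM in KO (0.41 ± 0.19, edgeR adjusted p = 0.24), high in KO replicate 2 alone. Without KO replicate 1 the log2 fold changes were 0.71 for Itgb7 and -0.31 for Kit. The sum over the 28 was 167 to 203 CPM in controls and 182 and 196 CPM in KO.

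Among the megakaryocyte genes, the fibrinogen receptor and platelet factor 4 were set apart by KO replicate 2. Itga2b, the alpha chain of the fibrinogen receptor (CD41), which is also made by early blood progenitors, was at 33.0, 31.25 and 28.7 CPM in controls and 33.8 and 57.5 CPM in KO. Both KO libraries were above all controls, KO replicate 1 by little, and KO replicate 2 was 1.70-fold above KO replicate 1. The log2 fold change was 0.56 ± 0.19 (edgeR adjusted p = 0.11; DESeq2 adjusted p = 0.034). Itgb3, the beta chain of the same receptor, was at 22.8, 17.8 and 18.2 CPM in controls and 18.7 and 29.8 CPM in KO (0.31 ± 0.19, edgeR adjusted p = 0.36), with KO replicate 2 again the highest and KO replicate 1 inside the control range.

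Pf4, platelet factor 4, was at 10.4, 9.91 and 9.29 CPM in controls and 8.38 and 20.9 CPM in KO (0.58 ± 0.30, edgeR adjusted p = 0.28). The KO libraries lay on either side of the controls, 2.49-fold apart, while the controls spanned 1.12-fold. The 95% Poisson intervals, which cover counting error only, were 6.88 to 10.1 CPM in KO replicate 1 and 18.65 to 23.3 CPM in KO replicate 2. Ppbp, pro-platelet basic protein, an alpha granule chemokine encoded next to Pf4, was at 8.17, 5.72 and 6.66 CPM in controls and 4.61 and 4.47 CPM in KO (-0.60 ± 0.18, edgeR adjusted p = 0.088). For Ppbp the 2 KO libraries were below all controls and nearly equal, unlike those of Pf4.

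Without KO replicate 1, which leaves KO replicate 2 as the lone KO library, assumed to vary like the controls, Pf4 was at 1.06 (edgeR adjusted p = 0.0014), Itga2b at 0.87 (0.00097) and Itgb3 at 0.58 (0.02). That fit called 12.7% of all genes higher. Without KO replicate 2 the log2 fold changes were -0.24 for Pf4, 0.12 for Itga2b and -0.08 for Itgb3, so the values above 0 of Pf4 and Itgb3 rested on KO replicate 2.

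The chromosome 5 neighbours Pf4 and Ppbp are printed because they lie side by side and differed in KO replicate 2. Pf4 (chr5:90772435-90773383, plus strand) begins downstream of the end of Ppbp (chr5:90768518-90770063, plus strand). Their windows are chr5:90772185-90772434 and chr5:90768268-90768517, and that of Gp9, a subunit of the von Willebrand factor receptor, is chr6:87777820-87778069, all on the plus strand of GRCm38.p6.
Pf4: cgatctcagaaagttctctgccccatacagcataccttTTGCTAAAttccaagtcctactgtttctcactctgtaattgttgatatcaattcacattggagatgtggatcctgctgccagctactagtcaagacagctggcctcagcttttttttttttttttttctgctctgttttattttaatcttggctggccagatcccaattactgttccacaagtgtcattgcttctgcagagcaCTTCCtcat
Ppbp: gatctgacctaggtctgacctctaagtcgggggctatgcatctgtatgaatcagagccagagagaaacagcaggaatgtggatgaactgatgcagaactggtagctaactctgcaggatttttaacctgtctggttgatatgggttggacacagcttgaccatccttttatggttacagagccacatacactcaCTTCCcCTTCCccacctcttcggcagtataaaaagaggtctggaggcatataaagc
Gp9: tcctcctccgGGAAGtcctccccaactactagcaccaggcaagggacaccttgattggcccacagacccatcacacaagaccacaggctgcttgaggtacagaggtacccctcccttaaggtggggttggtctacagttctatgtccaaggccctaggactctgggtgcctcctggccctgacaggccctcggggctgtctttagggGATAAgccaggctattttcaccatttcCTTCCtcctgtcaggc
Pf4 held 1 CTTCC and 1 TTGCNNAA match, Ppbp 2 CTTCC matches, and Gp9 1 GATAA match and 2 of GGAAG or CTTCC. Of the 8 megakaryocyte genes with a window, 3 held GATAA or TTATC, 7 GGAAG or CTTCC and 1 TTGCNNAA.

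Gp9 and Gp1ba encode subunits of the receptor for von Willebrand factor. Gp9 was at 13.2, 16.1 and 13.4 CPM in controls and 15.4 and 10.0 CPM in KO (-0.17 ± 0.18, edgeR adjusted p = 0.63), so KO replicate 2 was the lowest library. Without KO replicate 1 Gp9 passed at -0.52 (edgeR adjusted p = 0.048), and without KO replicate 2 it was at 0.11. Gp1ba, the ligand-binding subunit, was at 5.92, 4.65 and 4.785 CPM in controls and 4.61 and 4.41 CPM in KO (-0.19 ± 0.17, edgeR adjusted p = 0.54). Both KO libraries were below all controls for Gp1ba by less than the controls differed from each other.

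Vwf, von Willebrand factor, which endothelial cells make as well, was at 40.15, 43.5 and 40.4 CPM in controls and 49.3 and 48.5 CPM in KO (0.24 ± 0.08, edgeR adjusted p = 0.099), above all controls in both KO libraries. Rap1b, a small GTPase of platelet integrin signalling that most cells express, was at 117, 112 and 108 CPM in controls and 110 and 108 CPM in KO (-0.04 ± 0.07, edgeR adjusted p = 0.75). Gp1bb had 3 to 8 counts in controls and 5 and 9 in KO, and 1902 bp of its 2087 bp of exons overlap Sept5 on the same strand, so its counts are uncertain. Gp6, the collagen receptor, had 2 to 4 counts in each library. Neither of these 2 genes passed the filter.

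Over the 8 tested megakaryocyte genes the median log2 fold change was 0.10. In edgeR 3 of the 8 had an unadjusted p under 0.05, against 23.8% of all genes tested, with Itga2b and Vwf above and Ppbp below. Control replicate 2 was the lowest control for 3 of the 8, near the 35.8% of all genes tested. KO replicate 2 was above KO replicate 1 for 3 of the 8, and 50.6% of all genes tested had that order. Without Rap1b, the most counted gene, the megakaryocyte sum was 134, 129 and 122 CPM in controls and 135 and 176 CPM in KO, so KO replicate 2 alone stood apart.

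**Figure D4:**
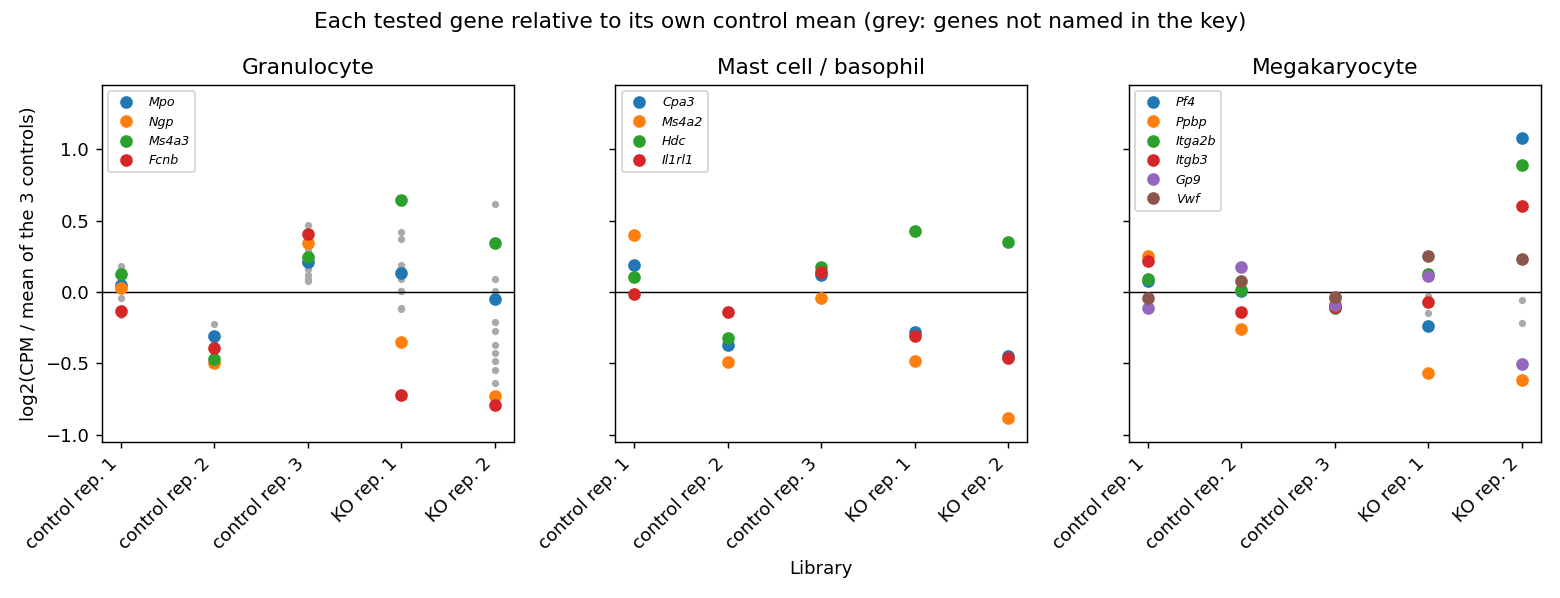
Log2 ratio of each tested gene's CPM to its mean over the 3 controls, for the 5 libraries, with 1 panel for each lineage and 1 point for each gene, grey for genes not in the key. Granulocyte genes dip together in control replicate 2, with a median log2 difference of -0.50 from the other controls, and Pf4, Itga2b and Itgb3 stand high in KO replicate 2.

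Of 42 other megakaryocyte genes, 39 were tested and 0 were called in edgeR, DESeq2 or limma-voom. Over all genes tested edgeR called 6.98%. In edgeR 7 of the 39 had an unadjusted p under 0.05, 5 higher and 2 lower, against 23.8% of all genes tested. KO replicate 2 was above KO replicate 1 for 28 of 39 (71.8%), against 50.6% of all genes tested, with a median log2 ratio of 0.15. Control replicate 2 was the lowest control for 29, where 35.8% of all genes tested had it. Their sum was 2943 to 3056 CPM in controls and 3052 and 3019 CPM in KO, most of it from genes that erythroid cells share. Zfpm1 (FOG1), the GATA1 cofactor, was at 751, 862 and 839 CPM in controls and 785.0 and 760.0 CPM in KO (-0.08 ± 0.09, edgeR adjusted p = 0.63). Nfe2, a factor of platelet release and of globin genes, was at 571, 574 and 587 CPM in controls and 594 and 511 CPM in KO (-0.06 ± 0.09, edgeR adjusted p = 0.70). Myh9, non-muscle myosin, was at 639, 608 and 641 CPM in controls and 716 and 752 CPM in KO (0.22 ± 0.08, edgeR adjusted p = 0.12), above all controls in both, and passed without KO replicate 1 (0.24, edgeR adjusted p = 0.044).

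Tubb1, the platelet tubulin, is more restricted to megakaryocytes and was picked after its values had been seen. It was at 18.3, 17.2 and 16.6 CPM in controls and 20.1 and 28.4 CPM in KO (0.49 ± 0.14, edgeR adjusted p = 0.077). Both KO libraries were above all controls for Tubb1. Other platelet genes of the list, likewise picked after their values had been seen, lay on the other side: F13a1, a coagulation factor subunit also made by macrophages, was at 28.3 to 41.2 CPM in controls and 27.6 and 23.9 CPM in KO (-0.46 ± 0.15, edgeR adjusted p = 0.10). Alox12, platelet lipoxygenase, had -0.33 ± 0.19 (edgeR adjusted p = 0.33), and Gp5, Clec1b and Mmrn1, platelet surface or granule proteins, had -0.09, -0.22 and -0.19 (edgeR adjusted p = 0.76, 0.73 and 0.56).

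Levels of different genes can be compared only per length of exon, as CPM per kilobase. On that scale the controls had 138 ± 24.4 (SD, n = 3) for Mpo, 78.8 ± 14.6 for S100a9, 53.0 ± 12.8 for S100a8 and 39.0 ± 1.64 for Rap1b. Elane followed at 24.2 ± 5.11, and Ngp at 18.5 ± 5.21, Prtn3 at 18.2 ± 3.47 and Ctsg at 18.15 ± 2.26 did not differ from one another beyond their spread. Gp9 at 16.1 ± 1.84, Camp at 14.8 ± 2.585 and Pf4 at 13.7 ± 0.785 came next. Il1rl1 at 4.54 ± 0.439 and Cpa3 at 4.42 ± 0.879 led the mast cell and basophil genes and lay within each other's spread. Ppbp was at 6.32 ± 1.14, Itga2b at 5.68 ± 0.396, Itgb3 at 3.32 ± 0.465, Vwf at 2.57 ± 0.118 and Gp1ba at 1.88 ± 0.257. The IgE receptor chain Ms4a2 stood far below these, at 0.381 ± 0.1165.

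Markers of other cells in the fetal liver were read beside these values, and their part in any of the differences above was not tested. Of 18 macrophage genes, 16 were tested, and 5 were called lower and 0 higher in edgeR, where 1.83% of all genes were called lower. DESeq2 and limma-voom each called 5 lower and 0 higher. The KO libraries lay below all controls for 14 of the 16, against 19.3% of all genes tested. The sum over the 18 was 148 to 165 CPM in controls and 118 and 119 CPM in KO, with Vsig4 at 0. Cd5l, a macrophage lipid-binding protein, fell from 15.9, 18.6 and 16.8 CPM to 11.1 and 8.88 CPM (-0.78 ± 0.14, edgeR adjusted p = 0.012). Adgre1 (F4/80), Marco, a scavenger receptor, and Vcam1, an adhesion molecule of erythroblastic islands, had log2 fold changes of -0.68, -0.79 and -0.78 (edgeR adjusted p = 0.016, 0.016 and 0.017). The abundant macrophage genes Csf1r, Hmox1 and Mrc1 had values of -0.24, -0.01 and -0.32 (edgeR adjusted p = 0.15, 0.99 and 0.14). C1qc, a complement gene that is the fifth of those called, was picked after its values had been seen (-0.85 ± 0.19, edgeR adjusted p = 0.033). Leaving out any 1 control ended the calls of Adgre1, Marco and Vcam1 (edgeR adjusted p = 0.053 to 0.080), and leaving out control replicate 2 that of Cd5l (0.065). The fits without 1 control called 31 to 61 of all genes lower, against 238 with all libraries. Marco and Vcam1 also lost their calls without KO replicate 2, a fit with a single KO library.

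Progenitor genes had the low control library of the granulocyte list. Of 10, 9 were tested and 0 were called in edgeR, DESeq2 or limma-voom, where edgeR called 6.98% of all genes tested. In edgeR 1 of the 9 had an unadjusted p under 0.05, against 23.8% of all genes tested. Control replicate 2 was the lowest control for 9 of 9, against 35.8% of all genes tested. Their sum was 301, 247 and 293 CPM in controls and 255 and 259 CPM in KO, and Kit and Gata2 also belong to the list of other mast cell genes. Myb, a factor of progenitors, and Cd34, a progenitor surface protein, had log2 fold changes of -0.16 ± 0.09 and 0.09 ± 0.14 (edgeR adjusted p = 0.31 and 0.75). For the erythroid genes control replicate 2 was the lowest control in 2 of 14.

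Of 8 stellate cell genes, 5 were tested and 3 were called higher in edgeR (2 in DESeq2, 1 in limma-voom). In edgeR 5.15% of all genes tested were called higher. The sum over the 8 was 39.9 to 46.1 CPM in controls and 111 and 82.0 CPM in KO. Reln alone held most of this sum in every library, so the sum mainly gives the level of Reln. Col1a1, a collagen chain, rose from 2.38, 1.91 and 1.73 CPM to 4.38 and 12.1 CPM (2.05 ± 0.39, edgeR adjusted p = 0.016), and Col1a2 rose from 3.925, 3.20 and 3.33 CPM to 5.15 and 9.785 CPM (1.11 ± 0.26, edgeR adjusted p = 0.037). Reln, an extracellular matrix protein, rose from 30.5, 28.1 and 30.9 CPM to 93.4 and 42.3 CPM (1.18 ± 0.26, edgeR adjusted p = 0.030). KO replicate 2 was the higher KO library for the collagens, as for Pf4 and Itga2b, and KO replicate 1 for Reln. Leaving out any 1 control ended the 3 calls (edgeR adjusted p = 0.054 to 0.15). The fits without 1 control called 210 to 339 of all genes higher, against 669 with all libraries. Without KO replicate 2 the log2 fold changes were 1.11 for Col1a1 and 0.55 for Col1a2, while without KO replicate 1 that of Reln was 0.48. Col3a1 was at 2.635 to 4.95 CPM in controls and 4.84 and 14.3 CPM in KO (1.43 ± 0.42, edgeR adjusted p = 0.074). Pdgfrb had -0.15 ± 0.20 (edgeR adjusted p = 0.69), and Dcn, Des and Lum were under the filter.

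Endothelial genes, read because endothelial cells make Vwf as well, numbered 8. Of these 7 were tested and 0 called in edgeR, DESeq2 or limma-voom, where edgeR called 6.98% of all genes tested. In edgeR 2 of the 7 had an unadjusted p under 0.05, both lower. Of all 13000 genes tested, 3097 (23.8%) had such a p, 1233 of them lower. The sum over the 8 was 88.3 to 107 CPM in controls and 72.6 and 95.3 CPM in KO. KO replicate 2 was above KO replicate 1 for 7 of 7, against 50.6% of all genes tested. Vwf was nearly equal in the 2 KO libraries, and a part of endothelial cells in its level was not tested. Eng, Stab2 and Cdh5, surface proteins of endothelial cells, had log2 fold changes of -0.18, -0.30 and -0.47 (edgeR adjusted p = 0.48, 0.20 and 0.085). Hepatocyte genes gave 0 calls of 13 in edgeR, DESeq2 or limma-voom, and 0 at an unadjusted p under 0.05 in edgeR. Over all genes tested, edgeR called 6.98%, and 23.8% had an unadjusted p under 0.05. Afp, Alb and Apob were at 0.09, -0.04 and -0.17 (edgeR adjusted p = 0.77, 0.92 and 0.67). The hepatocyte sum was 242 to 383 CPM in controls and 285 and 335 CPM in KO. Lymphoid genes gave 0 calls of 6 tested, of 18 listed, in the same 3 tools. In edgeR 0 of the 6 had an unadjusted p under 0.05, against the same shares of all genes. Their sum was 10.75 to 13.9 CPM in controls and 11.45 and 8.88 CPM in KO, and Cd3e, Cd3d, Cd8a and Klrb1c were at 0. Rag1, Cd79b and Il7r had values of -0.77, -0.24 and -0.40 (edgeR adjusted p = 0.25, 0.57 and 0.42).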

How the data were processed

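RNA was sequenced from 5 libraries of sorted TER119+ cells, 3 control and 2 KO, grouped by title and genotype in the labels. Per the labels' protocols, poly(A) RNA was made into libraries with the Ion Total RNA-Seq chemistry for an Ion Proton sequencer. The authors deposited whole-number counts per gene, not normalized; HTSeq, Bowtie, STAR, cutadapt and mm10 are named, per the submitters' processing notes. Not given in the sources used here are versions, the use of strand and the handling of reads with several matches. Reads carry no molecular identifiers, so intervals and count floors cover counting error only.

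Of 39179 Ensembl identifiers, 37607 matched a symbol in GENCODE M21, whose assembly, GRCm38, is that of mm10; the other 1572 held 0.365% to 0.388% of counts. The quasi-likelihood test of edgeR 4.0.16 (R 4.3.3) was run on the counts, with TMM scaling (factors 0.970 to 1.03), filterByExpr (13000 genes kept), the group as the only term and Benjamini-Hochberg adjustment over all genes kept, at 0.05. There were 3 residual degrees of freedom, and edgeR's common coefficient of biological variation was 8.67%. The same steps were tested on simulated data. DESeq2 1.42.0, limma-voom (limma 3.58.1), RLE scaling, leaving out globin genes, no filter, at least 5 CPM in 2 libraries, the replicate number as a block and leaving out each library were the alternatives. For the sums, leaving out the most counted gene and a mean of log2(CPM + 0.5) were others.

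The 31 genes and the 11 lists of other genes were chosen with earlier results of these data known. Genes with a mean of at least 5 CPM (23 of the 31) are given in every library. Of each list the text names the genes past the threshold, up to 4 in each direction by p, and up to 3 of the most abundant others. Genes named outside this rule are said to be so, except those at 0 and Ly6g, Cma1 and Tpsab1, which were likewise picked after their values were seen. Ahsp, in the erythroid list, was not matched. Upstream windows are RefSeq's, and those of Vwf, Itgb3 and Cebpe are not shown.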

Additional observations from a re-analysis of the deposited data

How the results depend on the processing

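Of 309 values of the 26 tested genes under the alternatives, 285 kept their direction and side of the threshold, 16 changed sign, 8 passed in addition and 0 lost a call, since none was called; the cause of the changes was not tested. Counts over all genes moved more: 669 higher and 238 lower became 235 and 53 without a filter, where more genes were adjusted for, and 210 to 1709 and 31 to 1247 with 1 library left out. Megakaryocyte genes called higher were 1 in DESeq2 and 0 to 3 with 1 library left out; those called lower were 0 to 1, as were mast cell and basophil genes called lower. Without their most counted gene, the log2 ratio of the mast cell sum was 0.21 and that of the megakaryocyte sum 0.28; with 1 library left out the latter was 0.02 to 0.22.

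With 1 library left out, genes that changed sign had log2 fold changes of -0.09 to 0.16 (Mpo), -0.23 to 0.16 (Elane), -0.30 to 0.41 (Ctsg), -0.40 to 0.18 (S100a9), -0.23 to 0.06 (Gfi1), -0.24 to 1.06 (Pf4), -0.08 to 0.58 (Itgb3), -0.52 to 0.11 (Gp9), -0.02 to 0.13 (Srgn), -0.08 to 0.28 (Prg2), -0.26 to 0.17 (Siglecf), -0.04 to 0.71 (Itgb7) and -0.20 to 0.04 (Nfe2). Fits without 1 KO library keep a single KO library.

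Control and KO titles share replicate numbers 1 and 2. Deviations of same-numbered libraries from their group means correlated at 0.00161 and 0.0421. The labels do not say whether a shared number marks anything more. These values cannot decide it, since the deviations of 2 KO libraries mirror each other. With the replicate number as a block, 702 genes were higher and 171 lower, with 1 granulocyte gene (Ms4a3) and 1 mast cell and basophil gene (Hdc) called higher; Elane was at 0.16, S100a9 at 0.02, Gfi1 at 0.08 and Siglecf at 0.09. Values near 1 CPM rest on 13.2 to 15.4 counts, so those of Ms4a2 and Ear1 carry wide errors.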
